A study of Drosophila melanogaster with 16 samples.

Results

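The genes described here are the tubulins, the cytoplasmic actins and the filamin cher of the fly midgut, 10 genes in all: betaTub60D, betaTub56D, betaTub85D, betaTub97EF, alphaTub84B, alphaTub84D, alphaTub85E, Act5C, Act42A and cher. A gene counted as measured where a probe set of the array, a group of short probes for one transcript, carried its symbol and no other. This held for 7 of the 10, each with 1 probe set, out of 11982 genes measured this way. alphaTub84B, Act5C and Act42A had no probe set under their own symbol. The set was chosen by its readout: betaTub60D and cher are among the genes with the highest signal in Raf midguts over wild type, at ranks 5 and 7 of 11982 genes. Their values in that contrast, and in any contrast with the same RafGOF arrays, are therefore a description and carry no test.

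The series holds 16 arrays of total RNA from midguts dissected from female flies (Drosophila melanogaster), 4 arrays for each of 4 groups. Wild type midguts carry no transgene named in the labels. The RafGOF group overexpresses Raf in a gain-of-function form, a kinase upstream of MAPK. The RafGOF NotchDN group overexpresses the same Raf form with a dominant negative Notch, which blocks the Notch receptor, and the RafGOF NotchIC group overexpresses it with the Notch intracellular domain, the active form of the receptor. All 3 transgenic groups thus share the Raf transgene. The labels do not name the driver, the cells it acts in, the age of the flies or how many guts went on an array. The series title speaks of intestinal stem cells, whereas the labels give the tissue as whole midgut, so a level is a mean over all cell types of the gut. In such samples, a change in the number of cells of a type and a change in RNA per cell cannot be told apart.

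Microtubules are built from dimers of α- and β-tubulin and form the spindle of dividing cells and the tracks for transport in others. Flies have several tubulin genes whose products differ in where they are made: betaTub56D is the ubiquitous β-tubulin, betaTub60D is known from muscle and other differentiating cells, betaTub85D from the male germline, and alphaTub84B and alphaTub84D encode nearly identical common α-tubulins. Act5C and Act42A encode the cytoplasmic actins, and cher encodes filamin, a protein that cross-links actin filaments and ties them to the membrane. In the adult midgut, stem cells divide to renew the epithelium, Raf and MAPK signalling is known to drive their division, and Notch signalling is known to turn their daughters towards enterocytes.

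All values are RMA signals on a log2 scale, so that a difference of 1 is a doubling of the signal on the array. The median signal of an array ran from 5.48 to 5.70, and any 2 arrays of a group correlated at 0.979 to 0.995 over all probe sets. The labels number the arrays of each group 1 to 4, and deviations from the group means correlated between same-number arrays in each of the 4 comparisons. Values are therefore also given from a fit with the number as a block wherever that changes the call of a tested gene of the set. For the gene lists, counts from that fit are given for part of the comparisons only. That fit also called more probe sets over the whole array in each comparison, as given in the last paragraph. The shares over all genes come from the fit without the block, so block counts of lists are not read against them. Array 1 of RafGOF NotchDN stood apart for several of these genes, and their differences between the Notch groups are given with and without it. Separate crosses or gut pools behind the 4 arrays of a group are not stated, so p-values measure only the spread between these arrays.

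betaTub60D was well above the median signal of the arrays in wild type and higher still in every Raf group. Its signal on arrays 1 to 4 was 9.11, 9.86, 8.54 and 8.82 in wild type and 11.51, 13.47, 12.59 and 12.79 in RafGOF. With blocked Notch it was 10.28, 12.65, 12.27 and 12.38, and with active Notch 11.73, 12.46, 12.55 and 12.45. The lowest Raf array, RafGOF NotchDN array 1, lay above the highest wild type array, so no Raf group overlapped wild type. Group means were 9.08 ± 0.570 (SD, n = 4) in wild type, 12.59 ± 0.811 in RafGOF, 11.90 ± 1.09 in RafGOF NotchDN and 12.30 ± 0.382 in RafGOF NotchIC. RafGOF lay 3.51 above wild type (11.4-fold), the contrast that chose the gene. The genes next to it in that ranking were Rnf11 at 3.51 and Pen at 3.46.

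The Notch constructs moved betaTub60D little beside its spread. The mean order was RafGOF, RafGOF NotchIC, RafGOF NotchDN and wild type from high to low, and the arrays of the 3 Raf groups overlapped. RafGOF NotchDN differed from RafGOF NotchIC by -0.40 (SE 0.479, 95% interval -1.42 to 0.62, adjusted p = 0.730 by limma with Benjamini-Hochberg adjustment over all probe sets). Without RafGOF NotchDN array 1, and with array 1 of RafGOF NotchIC kept, the difference was 0.14 and so turned in direction. The same-number differences on arrays 1 to 4 were -1.45, 0.19, -0.27 and -0.07. RafGOF NotchDN differed from RafGOF by -0.69 and was lower in 4 of 4 same-number pairs, by -1.23, -0.81, -0.32 and -0.40. That difference was -0.15 without RafGOF NotchDN array 1 and with RafGOF array 1 kept. Array 1 was also the lowest RafGOF array and the lowest RafGOF NotchIC array for this gene, and array 2 was above its group mean in all 4 groups, by 0.16 to 0.88.

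Filamin cher was the other gene that chose the set, and its Raf level was partly lower where Notch was blocked. Its signal on arrays 1 to 4 was 7.01, 7.05, 7.74 and 7.52 in wild type and 9.80, 10.74, 11.07 and 11.35 in RafGOF. It was 8.54, 9.21, 10.31 and 10.60 in RafGOF NotchDN and 10.17, 9.94, 11.37 and 11.12 in RafGOF NotchIC. No Raf group overlapped wild type, and the 3 Raf groups overlapped one another. RafGOF lay 3.41 above wild type (10.6-fold), with E(spl)m3-HLH next below it in the ranking at 3.39. Set against wild type, the difference was 2.34 with blocked Notch and 3.32 with active Notch. The 3 differences share the wild type arrays and are given side by side only.

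Between the Notch groups, whose arrays took no part in the choice of the set, cher was 1.97-fold lower with blocked Notch (log2 difference -0.98, SE 0.446, 95% interval -1.93 to -0.03). This did not pass the test over all probe sets (adjusted p = 0.232, limma), and it did with the array number as a block (adjusted p = 0.00488, limma). The same-number differences were -1.63, -0.73, -1.05 and -0.51, so cher was lower in 4 of 4 pairs although the groups overlapped. Leaving out 1 array at a time gave differences from -1.29 to -0.60, the smallest of them without RafGOF NotchDN array 1. RafGOF NotchDN also lay below RafGOF in 4 of 4 pairs, by -1.26, -1.53, -0.755 and -0.749, at a mean difference of -1.07. RafGOF NotchIC differed from RafGOF by -0.09 and was lower in 2 of 4 pairs. Both of these rest on the RafGOF arrays and are descriptions.

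cher and betaTub60D were also the least reproducible of the 7 genes within groups. The residual SD over the 16 arrays was 0.762 for betaTub60D and 0.707 for cher, against a median of 0.184 over all 18769 probe sets, and 1.295% and 1.577% of probe sets had a larger one. For cher the spread followed the array numbers: array 1 was below its group mean in all 4 groups and arrays 3 and 4 were above it in all 4. betaTub60D did not share this order, since its array 2 was above the mean in all 4 groups. What the array numbers stand for was not tested.

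**Figure D1:**
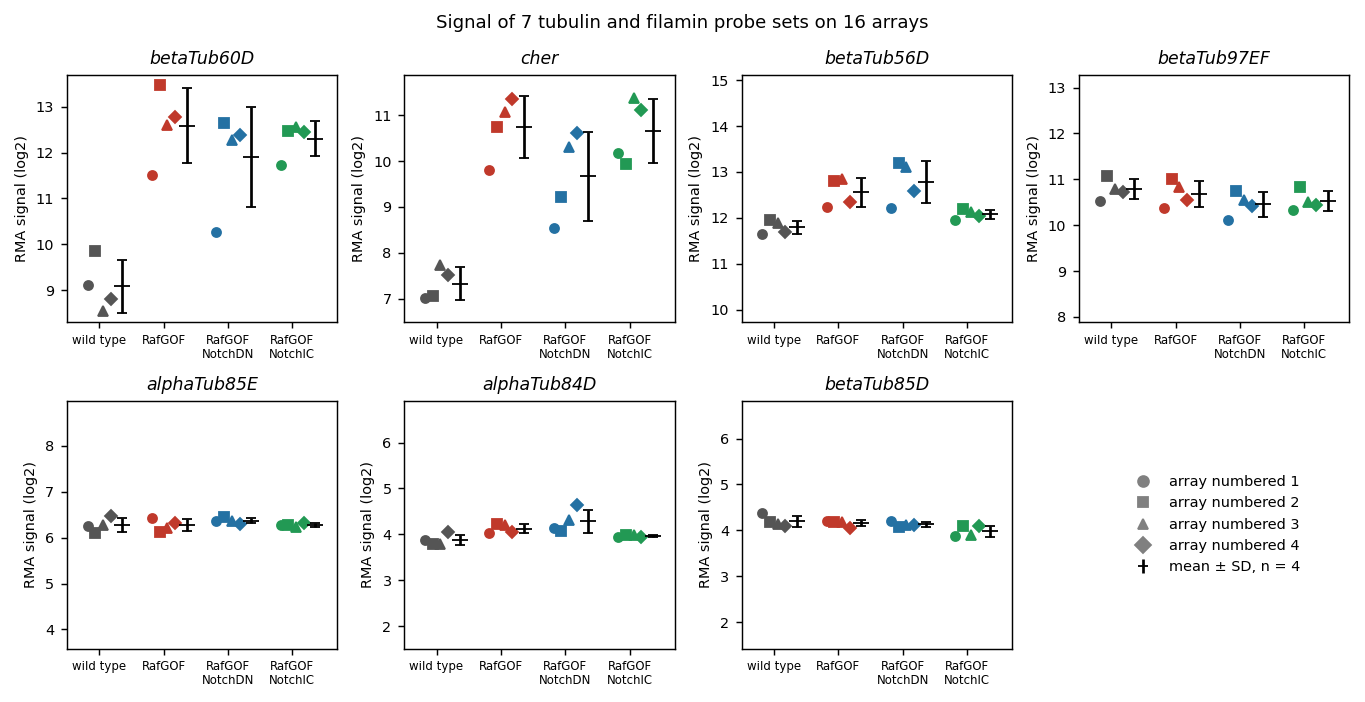
RMA signal (log2, vertical axis) of the 7 measured genes on the 16 arrays, by group. Each symbol is 1 array, its shape gives the array number in the labels, black bars give mean ± SD (n = 4), and every panel spans the same range of log2 units. betaTub60D and cher are separated from wild type in all 3 Raf groups, and betaTub56D is lowest among the Raf groups with active Notch.

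The named genes whose profile over the 16 arrays lay closest to these 2 were found among 6756 genes. The measure was the root mean square difference of the centred log2 signals. Genes of the set and genes known only by a CG or CR number were left out, so any closer gene among them is not listed. For betaTub60D they were scb (0.517), an integrin α subunit, Alh (0.539), Vrp1 (0.549), an actin regulator that binds WASp, E(spl)m3-HLH (0.605), a Notch target repressor, and ImpL2 (0.613), a secreted inhibitor of insulin signalling. The median gene lay 1.55 away. For cher they were Ipk2 (0.489), an inositol phosphate kinase, E(spl)m3-HLH (0.518), Cht9 (0.527), a chitinase-like gene, scb (0.568) and Vrp1 (0.645), against a median of 1.51. The names scb, Vrp1 and E(spl)m3-HLH stand in both lists. betaTub60D and cher lay 0.674 from each other. All these distances share the same 16 arrays and the large gap between wild type and Raf, and are descriptions.

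betaTub56D, the ubiquitous β-tubulin, followed another order, with its highest level where Notch was blocked and its lowest Raf level where Notch was active. Its signal on arrays 1 to 4 was 12.22, 13.20, 13.11 and 12.58 in RafGOF NotchDN and 11.95, 12.18, 12.12 and 12.04 in RafGOF NotchIC. Every RafGOF NotchDN array was above every RafGOF NotchIC array. The difference was 0.71 (1.63-fold, SE 0.191, 95% interval 0.30 to 1.11, adjusted p = 0.0307 by limma). betaTub56D was the 1 of 7 genes called between the Notch groups, where 8.72% of all probe sets and 11.6% of the 11982 genes were called. Between same-number arrays it was higher with blocked Notch in 4 of 4 pairs, by 0.27, 1.02, 0.99 and 0.55, and the fit with the number as a block kept the call (adjusted p = 0.000771).

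That call was not firm against the arrays used. Without 1 array at a time the difference stayed between 0.57 (without RafGOF NotchDN array 2) and 0.89 (without RafGOF NotchDN array 1), but the call ended without RafGOF NotchDN array 2 (adjusted p = 0.0974, limma) or array 3 (0.113), and without RafGOF NotchIC array 1 (0.0825), 3 (0.0651) or 4 (0.0622). It also ended with arrays centred on their median (0.0867), in a fit of the 2 groups alone (0.0772), and without all arrays numbered 2 (0.111).

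The RafGOF group lay between the Notch groups for betaTub56D. Its signal was 12.23, 12.81, 12.84 and 12.35, against 11.64, 11.94, 11.89 and 11.69 in wild type, a mean difference of 0.76 (1.70-fold) without overlap. RafGOF NotchIC was lower than RafGOF by a log2 difference of -0.48 (1.40-fold, SE 0.191, 95% interval -0.89 to -0.07). Its arrays did not overlap RafGOF and it was lower in 4 of 4 pairs. It did not pass over all probe sets (adjusted p = 0.301, limma) and passed with the number as a block (adjusted p = 0.0233). RafGOF NotchDN differed from RafGOF by 0.23 (95% interval -0.18 to 0.63, adjusted p = 0.927), which was within the spread of the arrays. Set against wild type, the 3 Raf groups lay 0.76, 0.99 and 0.28 higher, in the order RafGOF, RafGOF NotchDN and RafGOF NotchIC.

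Markers of gut progenitors moved along with betaTub56D. Of 8 measured marker genes of stem cells and their daughters, 5 rose and 1 fell with blocked against active Notch, where 6.09% of all genes were called higher and 5.47% lower. The 3 largest rises were those of Delta (2.27, adjusted p = 0.000340), the Notch ligand of stem cells, esg (2.14, adjusted p = 0.000403), a progenitor transcription factor, and zfh2 (1.76, adjusted p = 5.9e-05, all limma). The others were spdo (1.51) and mira (0.68), and the marker that fell was klu (-1.09, adjusted p = 0.000963, limma), these 3 named after their values were seen. The mean signal of the 8 genes was 6.45 to 6.63 in wild type, 7.12 to 7.61 in RafGOF, 7.49 to 8.24 in RafGOF NotchDN and 6.72 to 6.92 in RafGOF NotchIC. The order of the 4 group means was that of betaTub56D. The part of these cells in the tubulin difference was not tested.

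None of the remaining 4 tubulins passed in a tested comparison by limma. alphaTub84D was the 1 of them at an unadjusted p under 0.05, and it passed between the Notch groups with the number as a block. betaTub97EF, a β-tubulin isotype described in the gut, was 10.53, 11.06, 10.79 and 10.73 in wild type, 10.37, 11.00, 10.83 and 10.55 in RafGOF, 10.10, 10.74, 10.54 and 10.42 in RafGOF NotchDN, and 10.33, 10.83, 10.51 and 10.43 in RafGOF NotchIC. All groups overlapped. Its largest tested difference, RafGOF NotchDN against RafGOF, was -0.23 (95% interval -0.59 to 0.12, adjusted p = 0.871, limma), though it was lower in 4 of 4 pairs, by -0.26, -0.26, -0.29 and -0.13. With the number as a block the adjusted p was 0.0852. Without RafGOF NotchDN array 1, its same-number partners kept, the difference was -0.12, and that between the Notch groups turned from -0.07 to 0.04. On arrays 1 to 4 the same-number differences between the Notch groups were -0.23, -0.09, 0.03 and -0.01. In every group array 2 was the highest and array 1 the lowest.

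alphaTub84D gave a signal near the bottom of the scale, at 3.79 to 4.63 over the 16 arrays and thus below every array's median. Whether it was above background was not tested, so the size of its differences is uncertain and no fold is given. It was 4.13, 4.06, 4.31 and 4.63 in RafGOF NotchDN and 3.94, 3.98, 3.98 and 3.94 in RafGOF NotchIC. The groups did not overlap, at a difference of 0.32 (SE 0.111, 95% interval 0.09 to 0.56). It did not pass over all probe sets (adjusted p = 0.0938, limma) and passed with the number as a block (adjusted p = 0.0467). RafGOF NotchIC was also below RafGOF on every array, by a mean of -0.16 (adjusted p = 0.700, limma). Set against wild type, it lay 0.25 higher in RafGOF, 0.41 higher in RafGOF NotchDN, without overlap, and 0.09 higher in RafGOF NotchIC. Its near-identical partner alphaTub84B was not measured, and which of the pair the probes read was not tested.

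alphaTub85E, an α-tubulin known from support cells of sense organs and of muscle attachments, lay between 6.10 and 6.46 on all 16 arrays. It differed by 0.09 (95% interval -0.09 to 0.28) between the Notch groups, by 0.09 (-0.09 to 0.28) between RafGOF NotchDN and RafGOF, and by 0.00 (-0.18 to 0.19) between RafGOF NotchIC and RafGOF. The groups overlapped in all of these. betaTub85D, the β-tubulin of the male germline, lay between 3.87 and 4.38, also near the bottom of the scale. It differed from wild type by -0.21 in RafGOF NotchIC, without overlap, and by -0.04 and -0.06 in RafGOF and RafGOF NotchDN. It was 0.15 higher in RafGOF NotchDN than in RafGOF NotchIC (95% interval -0.03 to 0.33, adjusted p = 0.371, limma) and differed by -0.17 between RafGOF NotchIC and RafGOF (-0.35 to 0.01, adjusted p = 0.480). These guts came from females, and 16 measured male germline markers had a mean signal of 4.35 to 4.56 over the 16 arrays, with 12 of the 16 below 5 in every group.

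**Figure D2:**
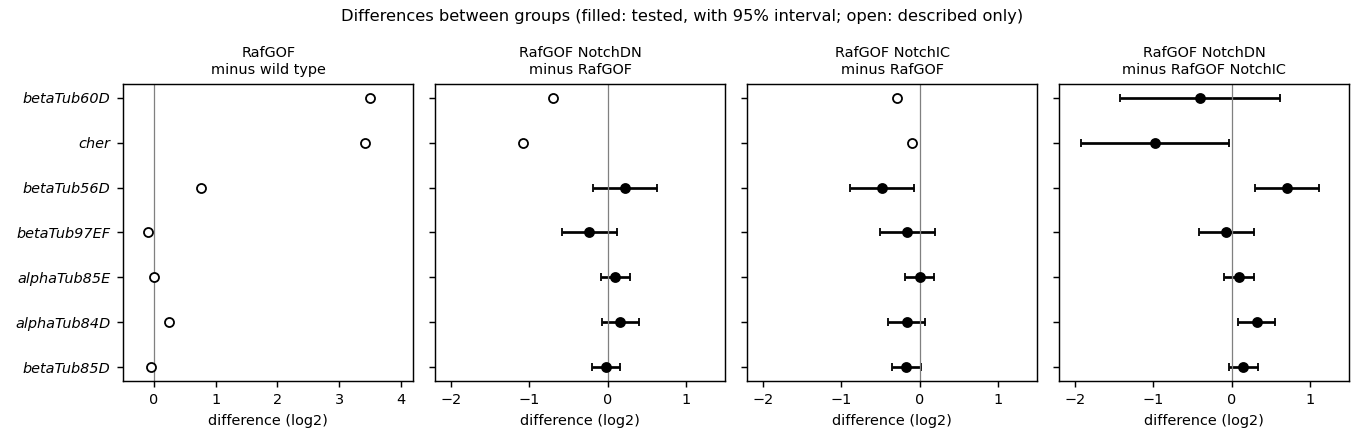
Differences between groups in log2 signal (horizontal axis) for the 7 measured genes in the 4 comparisons. Filled points were tested and carry 95% intervals from the limma fit, open points are described only. Between the Notch groups betaTub56D lies to the right of 0 at 0.71 and cher to the left at -0.98. The first panel has a wider axis than the other panels.

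Taking the comparisons one by one, 1 of 7 genes passed for RafGOF NotchDN against RafGOF NotchIC, with 3 at an unadjusted p under 0.05. For RafGOF NotchDN against RafGOF, 0 of the 5 tested genes passed by limma, with 0 at an unadjusted p under 0.05. In that comparison 1.09% of all probe sets and 1.37% of all genes were called. For RafGOF NotchIC against RafGOF, 0 of 5 passed by limma, with 1 at an unadjusted p under 0.05, beside 2.34% of all probe sets and 3.01% of all genes called. In RafGOF against wild type 3 of the 7 (betaTub60D, cher and betaTub56D) were past the threshold beside 19.1% of all probe sets and 25% of all genes. As that contrast chose the set, nothing is read from the count. The genes that were not called are not shown to be unchanged, and their intervals give what the 4 arrays a group allow.

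Act5C and Act42A could be followed only through control probe sets that the array names for actin, which lie outside the rule and were not tested. The set named for the 3′ end of Act5C was high in all groups, at 13.27 to 13.67 in wild type, 13.35 to 13.89 in RafGOF, 12.93 to 13.67 in RafGOF NotchDN and 13.55 to 13.77 in RafGOF NotchIC. These ranges overlapped, and the mean differences from wild type were 0.36, 0.04 and 0.28. The other Act5C sets, whose groups overlapped too, did not share these signs. The pair named for the 5′ end differed from wild type by -0.02 and 0.07 in RafGOF, by -0.90 and -0.85 in RafGOF NotchDN and by -0.26 and -0.19 in RafGOF NotchIC. The set named for the middle differed by 0.64, -0.12 and 0.42. The set named ACTIN for the 3′ end was 10.71 to 11.57 in wild type against 12.17 to 12.97 in RafGOF and 12.67 to 13.02 in RafGOF NotchIC, with no overlap and mean differences of 1.57 and 1.69. In RafGOF NotchDN it was 11.47 on array 1 and 12.70 to 13.00 on the others, which overlapped wild type at a mean difference of 1.35. The ACTIN sets for the 5′ end and the middle differed from wild type by 1.35 to 1.56 in RafGOF, without overlap. In RafGOF NotchDN they differed by 0.88 to 1.08, all with overlap. In RafGOF NotchIC they differed by 1.41 to 1.72, and the 5′ set overlapped. Which actin genes each control set reads was not tested, and the muscle actins are close relatives in sequence.

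Array 1 of RafGOF NotchDN was the lowest RafGOF NotchDN array in betaTub60D, cher, betaTub56D, betaTub97EF and all of the Act5C and ACTIN control sets. The excess of 3′ over 5′ signal, a measure of RNA or labelling quality, moved with the group and with the array number. For Act5C it was 1.26 to 1.92 in wild type, 1.73 to 2.38 in RafGOF, 2.17 to 3.02 in RafGOF NotchDN and 1.90 to 3.19 in RafGOF NotchIC, so that RafGOF NotchDN did not overlap wild type. Its 2 highest values were those of RafGOF NotchIC array 4 and RafGOF NotchDN array 1. For the ACTIN control it was 0.95 to 1.42 in wild type and 0.84 to 1.80 in RafGOF NotchDN, which overlapped. For the control named phe it was 2.87 to 3.61 on the arrays numbered 2 and at most 2.30 on all others. The part of this in the gene differences was not tested. Values without RafGOF NotchDN array 1 are given above for the 4 genes between the Notch groups, for part of their other differences, and not for the control sets.

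**Figure D3:**
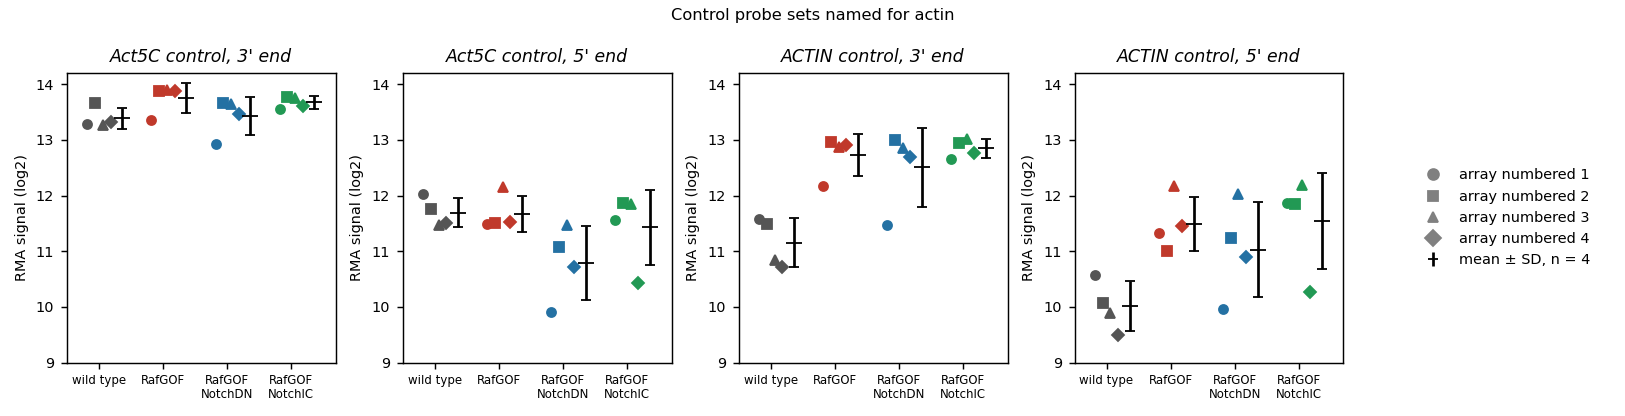
RMA signal (log2, vertical axis) of 4 control probe sets named for actin on the 16 arrays, by group. Each symbol is 1 array with its number given by its shape, and black bars give mean ± SD (n = 4). The ACTIN 3′ set lies higher in RafGOF and RafGOF NotchIC than in wild type while the Act5C 3′ set overlaps, and array 1 of RafGOF NotchDN is the lowest of its group in each panel.

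The other genes of the tubulin and actin systems were followed in 8 lists, counted without the genes above. In RafGOF against wild type, where 14.9% of the 11982 genes were called higher and 10.1% lower, actin assembly had 15 of 32 genes higher and 0 lower, with a median difference of 0.56 against -0.02 over all probe sets. In the same contrast 5 of 8 progenitor markers were higher, and 6 of 13 visceral muscle, 6 of 8 Malpighian tubule and 4 of 8 fat body markers lower. Those called higher in actin assembly included Vrp1 (2.93, SE 0.315, adjusted p = 1.2e-05), the actin monomer binding protein cib (1.93, adjusted p = 0.00224) and ena (1.38, adjusted p = 0.0111, all limma), which lengthens actin filaments. The capping protein subunits cpa (1.02) and cpb (0.83), 5 subunits of the Arp2/3 complex that branches filaments, at 0.64 to 0.99, and the cofilin tsr (0.57) were among the other genes called higher, named after their values were seen. Another subunit, Arpc1, was at 0.11 (adjusted p = 0.853, limma). Leaving out 1 array at a time gave 11 to 18 called genes, and the fit with the number as a block called 22 higher and 4 lower. That fit called more probe sets over the whole array as well. ena missed the threshold without the arrays numbered 2 (adjusted p = 0.0856, limma).

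Among the actin cross-linkers and cortex proteins, the class to which cher belongs, 9 of 25 were higher and 3 lower in RafGOF than in wild type. With the number as a block 13 were higher and 4 lower. Those with the largest differences were Vinc (1.41, adjusted p = 0.000257), vinculin of cell adhesions, Zasp52 (1.30, adjusted p = 0.00935) and parvin (0.99, adjusted p = 0.00943, all limma), the last 2 of them partners of integrin adhesions. Zasp52 missed the threshold without the arrays numbered 2 (adjusted p = 0.0676). The other filamin-type gene, jbug, named after its values were seen, went the other way from cher at -0.68 (6.42, 7.42, 7.03 and 6.61 in wild type against 6.03, 6.18, 5.77 and 6.78 in RafGOF). Its adjusted p of 0.0393 (limma) ran from 0.00694 to 0.136 without 1 array, and the groups overlapped. The call ended without wild type array 2 or 3 or RafGOF array 1, 2 or 3. Of the 3 measured muscle actins, 2 were lower, Act87E (-0.82, adjusted p = 0.0190) and Act88F (-0.63, adjusted p = 0.0148, limma). The call of Act87E ended without wild type array 3 or 4 or RafGOF array 1 or 3 (adjusted p up to 0.0641), and that of Act88F without RafGOF array 2 (0.0549).

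Among microtubule genes in RafGOF against wild type, motors had 9 of 23 higher and 1 lower, led by the spindle motors ncd (1.74, adjusted p = 0.000144) and Klp61F (1.30, adjusted p = 7.7e-05) and by Klp68D (1.53, adjusted p = 0.000272, all limma), a kinesin II subunit. Microtubule-binding proteins had 7 of 21 higher and 1 lower, with Map60 at 1.20, the severing enzyme subunit Kat60 at 1.15 and the spindle kinesin Klp67A at 1.08. Kat60 missed the threshold without the arrays numbered 2 (adjusted p = 0.0514, limma). Tubulin folding and modification had 4 of 16 higher and 1 lower, with the folding cofactor Tbcb at 1.12, the tubulin acetyltransferase Atat at 0.80 and the deacetylase HDAC6 at -1.20 (adjusted p = 0.000489, limma). Actomyosin and cytokinesis genes had 7 of 15 higher and 0 lower, led by anillin scra (2.50), pbl (1.41) and tum (1.28), which build the cleavage furrow. Of 4 other tubulins 1 was higher, the maternal alphaTub67C (0.33, adjusted p = 0.0155), whose call ended without wild type array 4 (0.0515). With the number as a block, motors had 13 higher and 1 lower, and microtubule-binding proteins 10 higher and 1 lower. Folding and modification genes then had 7 higher and 1 lower, actomyosin genes 10 and 1, and the other tubulins 1 and 1.

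Between the Notch groups, several spindle and cytokinesis genes were higher where Notch was blocked, while the direction of the microtubule lists as a whole depended on the fit. Over all genes, 6.09% were called higher and 5.47% lower there. Motors had 4 of 23 higher and 1 lower, microtubule-binding proteins 3 of 21 higher and actomyosin genes 3 of 15 higher. Tubulin folding and modification had 1 of 16 higher, TTLL4B (0.60, adjusted p = 0.0115, limma). The genes with the largest differences are known for cell division: tum (2.43, adjusted p = 1.3e-05), Klp61F (2.33, adjusted p = 7.6e-07), scra (2.22, adjusted p = 2.5e-05), Klp67A (2.16, adjusted p = 8.6e-07) and ncd (1.92, adjusted p = 0.000162, all limma). nod (1.03), a chromosome-bound kinesin-like protein, mars (0.92), a spindle protein, and Septin5 (1.02) were also called. Each of these 8 genes, and Map60 (1.25), stayed called whichever 1 array was left out. Over the whole list of motors the median difference was -0.23, against 0.02 over all probe sets, and with the number as a block 5 motors were higher and 5 lower, folding and modification genes had 1 higher and 3 lower, and microtubule-binding proteins 4 higher and 0 lower. The other called motors, named after their values were seen, were sub at 0.35 and Khc-73 at -0.76. The count of called motors, 5 in all, was 3 without RafGOF NotchDN array 2 or RafGOF NotchIC array 3. Actin assembly had 0 of 32 higher and 2 lower, tmod (-0.64, adjusted p = 0.0344) and Abi (-0.58, adjusted p = 0.0415, limma), and cross-linkers 1 higher, Fit2 (0.50, adjusted p = 0.0261), and 1 lower, Zasp66 (-0.52, adjusted p = 0.0253, limma), of 25. Each of these 4 calls ended without some single array, for Fit2 RafGOF NotchDN array 2 or 3 or RafGOF NotchIC array 2 or 3 (adjusted p up to 0.102) and for Zasp66 RafGOF NotchDN array 2 or 3 or RafGOF NotchIC array 1, 3 or 4 (up to 0.0942). For tmod they were RafGOF NotchDN array 1, 2 or 3 or RafGOF NotchIC array 2, 3 or 4 (adjusted p up to 0.0975), and for Abi they were RafGOF NotchDN array 1, 3 or 4 or RafGOF NotchIC array 2, 3 or 4 (up to 0.117). With the number as a block actin assembly had 9 lower and cross-linkers 9 lower and 1 higher. The block raised the calls over all probe sets too, so these counts are not read as particular to the lists. Without the block, 6.25% of folding genes, 6.25% of actin assembly genes and 8% of cross-linkers were called in either direction. That was no more than the 11.6% of all genes called. The difference between the lists was not tested.

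**Figure D4:**
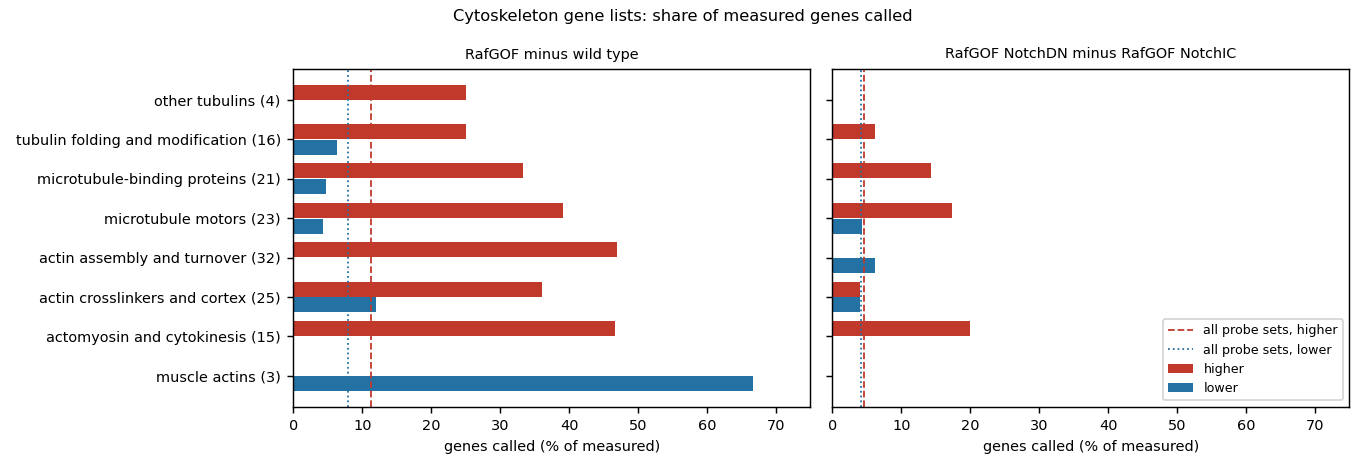
Share of the measured genes of 8 cytoskeleton lists that were called higher (red) or lower (blue), in percent (horizontal axis), in RafGOF against wild type and between the Notch groups. The number of measured genes stands in parentheses, and lines give the shares over all probe sets. Over genes the shares called higher were larger, at 14.9% in RafGOF against wild type and 6.09% between the Notch groups. In RafGOF against wild type actin assembly reached 46.9%, with 0 genes lower, and between the Notch groups the red bars of motors, microtubule-binding proteins, actomyosin genes and, with 1 gene, tubulin folding pass the line.

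Against RafGOF alone, Klp67A, Klp61F and tum were called in both comparisons, higher with blocked and lower with active Notch, where 1.37% and 3.01% of all genes were called. Klp67A was 0.98 higher with blocked Notch (adjusted p = 0.00679) and differed by -1.18 with active Notch (adjusted p = 0.00122, limma). Klp61F was 0.96 higher with blocked Notch (adjusted p = 0.0117) and differed by -1.37 with active Notch (adjusted p = 0.000649, limma). Its call with blocked Notch ended without RafGOF NotchDN array 3 (adjusted p = 0.0509). tum was 1.29 higher with blocked Notch (adjusted p = 0.0181) and differed by -1.14 with active Notch (adjusted p = 0.0247, limma). The first call ended without RafGOF array 1 or 4 or RafGOF NotchDN array 2 or 3 (up to 0.0679), and the second without RafGOF array 2 or 3 or RafGOF NotchIC array 2, 3 or 4 (up to 0.0935). In these lists, nod was called only with blocked Notch (0.65, adjusted p = 0.0258, limma), and scra (-1.38, adjusted p = 0.00615) and mars (-0.69, adjusted p = 0.0200, limma) only with active Notch, which is no test of a difference between the comparisons. The call of nod ended without RafGOF array 1 or 3 or RafGOF NotchDN array 2 or 3 (up to 0.101), and that of mars without RafGOF NotchIC array 2 or 3 (up to 0.0677). The 2 comparisons share the RafGOF arrays. In the actin assembly and cross-linker lists 0 genes were called in either comparison by limma. At an unadjusted p under 0.05 they held 7 and 2 genes with blocked Notch and 2 and 2 with active Notch. With the number as a block 4 and 2 were lower with blocked Notch, and 1 and 1 higher with active Notch.

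Muscle is a tissue in which betaTub60D is known to be made, and the gut carries a muscle coat, so its markers were read beside it. Of 13 measured visceral muscle markers 0 were higher and 6 lower in RafGOF than in wild type, by up to -0.93 for Obsc (adjusted p = 0.00130, limma). With the number as a block 0 were higher and 8 lower. The list also held vkg (0.10) and dysf (-0.06), which are not specific to muscle and were not called by limma. The mean signal of the 13 markers was 9.19 to 9.42 in wild type, 8.67 to 9.05 in RafGOF, 8.57 to 8.80 in RafGOF NotchDN and 8.83 to 9.09 in RafGOF NotchIC. betaTub60D was thus higher in the groups in which the muscle markers were lower, and the part of muscle in its level was not tested. Between the Notch groups 0 of the 13 were called by limma, with 6 at an unadjusted p under 0.05, and 5 were lower with blocked Notch in the fit with the number as a block. Of 8 neuron markers 0 were called between RafGOF and wild type by limma, and their mean signal was 4.83 to 5.27 over all arrays of the 4 groups. With the number as a block 1 neuron marker was called.

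Other cell type markers were also read between RafGOF and wild type, the contrast in which the cytoskeleton lists had their highest counts. Over all genes, 14.9% were called higher and 10.1% lower there. Of the progenitor markers 5 of 8 were higher and 1 lower, with a median difference of 0.84. Malpighian tubule markers had 6 of 8 lower and 0 higher (median -0.87), with 3 called without wild type array 2, and fat body markers 4 of 8 lower (median -1.14). The largest fall in the fat body list, -3.83, was that of ninaD, which at a mean of 11.40 was also its highest gene in wild type. Which tissue the ninaD signal came from was not tested. Enteroendocrine markers had 4 of 11 lower (median -0.42), enterocyte markers 3 of 7 (median -0.16), trachea markers 2 of 7 and hemocyte markers 1 of 11, with 0 higher in each by limma. The hemocyte share, 9.09%, was no larger than that over all genes. With the number as a block, progenitor markers had 6 higher and 1 lower, enteroendocrine markers 1 higher and 6 lower, and hemocyte markers 3 lower. Of 16 female (Yp1, Yp2 and Yp3, not specific to the germline, among them) and 16 male germline markers 0 were called by limma, with 0 and 3 at an unadjusted p under 0.05. With the number as a block 1 and 2 of them were called. The mean signal per array of the Malpighian tubule markers was 8.93 to 9.84 in wild type and 8.23 to 8.75 in RafGOF, and that of the fat body markers 7.40 to 8.06 and 6.36 to 6.67. The part of these cell types in the counts of the cytoskeleton lists was not tested.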

How the data were processed

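Per the labels' protocols, midgut total RNA was isolated by Trisol and its biotin label added with the GeneChip 3′ IVT Express Kit. The deposited values are log2 signals that the authors made with RMA, per the submitters' processing notes, and its software is not given in the sources used here. They were used as deposited for 18769 probe sets, after 183 controls were set aside. Symbols came from the supplied probe table: 13647 probe sets had 1 symbol, 402 several and 4720 none. Each list gene was read by its brightest probe set.

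Limma 3.58.1 (R 4.3.3) was fitted with 1 coefficient per group over 16 arrays (12 residual degrees of freedom) and Benjamini-Hochberg adjustment, a two-sided test with 0.05 as the limit of the adjusted p. In simulated data for the comparison of the Notch groups (18769 probe sets), 92% of log2 changes of 1 and 99% of changes of 2 were recovered. There 200 probe sets drawn at random were changed, and the noise was independent between arrays, without the shared deviations of same-number arrays. These shares do not carry over to betaTub60D and cher, whose residual SDs of 0.762 and 0.707 were far above the median of 0.184. Genes, lists and tests were chosen with earlier results of these data known. All measured members are described, and up to 3 called genes per list and comparison are named by size, others with a remark. The nearest profiles are the 5 genes with the smallest root mean square difference, without members of the set and genes of only a CG or CR number.

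Deviations of same-number arrays correlated at 0.157 to 0.529 (Notch groups), 0.494 to 0.785 and 0.105 to 0.528 (RafGOF NotchDN and RafGOF NotchIC with RafGOF) and 0.127 to 0.594 (RafGOF and wild type), each over 0.1. The same-number array was the one that correlated best for 3 of 4 arrays (Notch groups), 4 of 4 and 2 of 4 (RafGOF NotchDN and RafGOF NotchIC with RafGOF) and 3 of 4 (RafGOF and wild type). The pairing comes from the data and from the label numbers. The number of arrays limits the precision. Alternatives were a low-signal filter at 5, repeated quantile normalisation, median centring, fits of 2 groups, a prior with an intensity trend, the number as a block, and leaving out arrays. No sequences or coordinates are given.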

Additional observations from a re-analysis of the deposited data

Results flagged for a closer look

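In 2 groups 1 array lay far from the others for betaTub60D by Dixon's test, which was run on 28 sets of 4 arrays (7 genes in 4 groups). Chance flags about 1 in 20 such sets. In RafGOF NotchDN array 1 had a signal of 10.28, while the others lay between 12.27 and 12.65. In RafGOF NotchIC array 1 had 11.73, while the others lay between 12.45 and 12.55. RafGOF NotchDN array 1 was also the lowest of its group in the ACTIN 3′ control set, at 11.47 against 12.70 to 13.00. RafGOF NotchIC array 1 was the lowest there too, but close to the others, at 12.67 against 12.76 to 13.02. In the other ACTIN control sets the lowest RafGOF NotchIC array was array 4, at 10.26, 11.98 and 12.05, against 11.87, 12.69 and 12.79 on array 1. The part of array quality in these values was not tested.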

How the results depend on the processing

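Between the Notch groups the count of 1 called gene of 7 became 0 with arrays centred on their median, in a fit of the 2 groups alone and without the arrays numbered 2, and 3 with the replicate block (betaTub56D, cher and alphaTub84D). It ran from 0 to 1 without 1 array. For RafGOF NotchIC against RafGOF the replicate block gave 1 called gene in place of 0. The block changed no other call of a tested gene. The difference of betaTub60D between the Notch groups ran from -0.65 to 0.14 without 1 array. That of betaTub97EF was 0.0402 after repeated quantile normalisation and ran from -0.17 to 0.0439 without 1 array. betaTub85D in RafGOF NotchDN against RafGOF turned to 0.0043 without the arrays numbered 2. alphaTub85E in RafGOF NotchIC against RafGOF was -0.0074 after quantile normalisation and -0.05 without the arrays numbered 2, and ran from -0.0466 to 0.0525 without 1 array. None of these reversed values passed a test in either direction, and the cause was not tested. Over the alternatives, 390 values of single-gene differences counted as the same, 8 lost the call, 3 gained it and 11 turned. For a tested difference, the same meant an unchanged direction and side of the threshold. For a difference that was described only, it meant a shift smaller than the residual SD of the gene, so a value near 0 could change sign.

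Of 18769 probe sets, the block called 3500 in place of 1637 between the Notch groups and 792 in place of 204 for RafGOF NotchDN against RafGOF. It called 1232 in place of 440 for RafGOF NotchIC against RafGOF and 5509 in place of 3578 for RafGOF against wild type. Shares over all genes given beside the lists come from the fit without the block. Fits of 2 groups gave 27 for RafGOF NotchDN and 212 for RafGOF NotchIC against RafGOF. Median centring gave 134 for RafGOF NotchDN against RafGOF. Leaving out the arrays numbered 2 gave 129 and 114 for these comparisons. Leaving out 1 array gave 989 to 1638 between the Notch groups, 102 to 232 for RafGOF NotchDN and 201 to 416 for RafGOF NotchIC against RafGOF. Signals near the floor, as of alphaTub84D and betaTub85D, limit what differences can be seen.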
